A study of Mus musculus with 4 samples.

Results

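The Notch pathway genes described here are the receptors *Notch1* and *Notch4*, the ligands *Dll4*, *Jag1* and *Jag2*, the transcription factor *Rbpj*, and the target genes *Hey1*, *Hey2*, *Heyl* and *Hes1*. They were taken by symbol, and all 10 were found once among the 32285 genes of the count matrices. The matrices hold unique molecular identifiers (UMIs, 1 per captured transcript) per gene and cell barcode from droplet-based 10x single-cell RNA sequencing of mouse hearts at E10.5. Control hearts (Tie2flfl in the labels) carried *Tie2* alleles flanked by loxP sites with no Cre named in their label, and *Tie2-cko* hearts (Nfatcre-Tie2flfl) carried the same alleles and *Nfatc1* Cre. *Tie2* (*Tek*) encodes an angiopoietin receptor, and the Cre was knocked into *Nfatc1* and is active in the endocardium and its descendants. The whole cardiogenic region was taken, per the labels. Per the methods the strains had a mixed background, both sexes were used, and somite-matched libraries of both genotypes from a shared litter were sequenced in one lane. They give 2 hearts of each genotype, all of one litter. The control libraries are called 5 and 7 and the *Tie2-cko* libraries 6 and 8, after the numbers in their labels.

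Notch receptors are cut when a ligand on a neighbouring cell binds them, and the freed intracellular part joins the DNA-binding protein RBPJ to switch on target genes. *Hey* and *Hes* genes are the best known targets and encode repressors of transcription. In the embryonic heart, Notch signalling in endocardial cells (EdCs) takes part in the growth of trabeculae and in the change of cushion EdCs into cushion mesenchymal cells (MCs). *Hey1* and *Hey2* are also known as markers of atrial and ventricular cardiomyocytes (CMs).

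The libraries held between 169361996 and 259775540 UMIs, and 5684 to 10097 cells per library were kept, with a median of 14878 to 25875 UMIs per cell. Library 6 had the fewest kept cells and the highest median. Between 29 and 62 barcodes were shared by any pair of libraries (at most 0.521% of the smaller library). Clusters were named by markers, so each name below stands for cells like that type, and none of the 10 genes was used to make the clusters, although genes that vary with them were. All listed markers were present in the chamber EdC cluster (6 of 6), the ventricular CM clusters (6 of 6), the atrial CM cluster (7 of 7) and the vascular endothelial cell (EC) cluster (6 of 6), and 5 of 7 in the cushion EdC cluster. *Tek* was checked first. In chamber EdCs its level, the mean over cells of UMIs per 10000 UMIs, was 0.892 and 0.999 in the controls and 0.149 and 0.148 in *Tie2-cko*, a log2 difference of -2.54 ± 0.19 (SE, edgeR adjusted p = 0.0183). In cushion EdCs *Tek* was 0.876 and 1.67 against 0.359 and 0.286, and in vascular ECs the genotypes overlapped (0.545 and 0.686 against 0.708 and 0.444). In both EdC types *Tek* was thus lower in the 2 libraries labelled as *Tie2-cko*. The chamber EdC call was lost with a stricter cell filter (adjusted p = 0.0592), and *Tek* in cushion EdCs had an adjusted p of 0.147.

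Libraries 5 and 6 held nearly all foregut mesenchyme (531 and 559 cells, against 2 and 1 in libraries 7 and 8). Haemoglobin and other red blood cell markers, all 6 of them above 0 in every library, summed to 36.0 to 87.7 UMIs per 10000 in control chamber EdCs and 13.4 to 15.3 in *Tie2-cko* chamber EdCs. The same list did not overlap between genotypes, and was lower in *Tie2-cko*, in cushion EdCs, ventricular CMs and cushion MCs. Its part in the genotype differences given here was not tested. Of the 9 marker lists summed in chamber EdCs, 4 did not overlap between genotypes. Besides the red blood cell list, the sum of the 8 mesenchyme markers was higher in *Tie2-cko* (0.983 to 1.02 in control against 1.21 to 1.42). So was that of the 6 chamber EdC markers (13.2 to 14.1 against 14.9 to 15.8). The sum of the 6 macrophage markers was lower (0.0206 to 0.0281 against 0.0109 to 0.0125), with only 2 to 5 of them above 0 in a library. In cushion EdCs the mesenchyme list (3.94 to 3.97 against 4.25 to 4.55) and the epicardial list (0.185 to 0.230 against 0.248 to 0.258) were higher. The macrophage list was lower there, with only 1 to 3 of its markers above 0 in a library. The cushion EdC list was higher in ventricular CMs (0.699 to 0.707 against 0.785 to 0.819) and atrial CMs (0.785 to 0.848 against 0.894 to 0.929), the mesenchyme list in atrial CMs (0.158 to 0.193 against 0.197 to 0.205) and the endothelial list in cushion MCs (1.49 to 1.54 against 1.60 to 1.64). The cushion EdC list is not particular to cushion EdCs. Over both genotypes it summed to 14.5 to 15.7 in cushion MCs and 8.70 to 9.70 in cushion EdCs. The part of these lists in the genotype differences was not tested either.

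Promoter sequence was available from RefSeq (build GRCm38.p6) for 7 of the 10 genes: *Notch1*, *Notch4*, *Dll4*, *Jag1*, *Jag2*, *Hey2* and *Rbpj*. The 250 bases before the start site are shown for *Hey2*, the gene that differed most between endocardial types, and for the ligands *Dll4* and *Jag1*, which differed in opposite directions. The letters of the core RBPJ site, TGGGAA, or TTCCCA on the other strand, are in capitals. In the GRCm38 annotation *Hey2* spans chr10:30832359-30842801, *Dll4* chr2:119325784-119335962, *Jag1* chr2:137081456-137116644, *Notch1* chr2:26457903-26516663 and *Hey1* chr3:8663359-8667256. The windows shown lie before the start sites that RefSeq gives. That of *Hey2* is at chr10:30842784-30843033 (- strand), that of *Dll4* at chr2:119325534-119325783 (+ strand) and that of *Jag1* at chr2:137116521-137116770 (- strand).
Hey2: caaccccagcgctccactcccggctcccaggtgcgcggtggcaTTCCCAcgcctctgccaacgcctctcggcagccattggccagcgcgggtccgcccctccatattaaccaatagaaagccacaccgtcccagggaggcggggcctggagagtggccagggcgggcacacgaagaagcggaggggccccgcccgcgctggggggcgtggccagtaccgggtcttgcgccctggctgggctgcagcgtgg
Dll4: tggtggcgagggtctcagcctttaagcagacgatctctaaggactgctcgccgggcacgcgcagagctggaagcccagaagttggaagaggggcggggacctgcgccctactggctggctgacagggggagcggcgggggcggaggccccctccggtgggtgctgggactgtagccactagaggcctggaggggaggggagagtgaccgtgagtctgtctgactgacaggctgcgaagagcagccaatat
Jag1: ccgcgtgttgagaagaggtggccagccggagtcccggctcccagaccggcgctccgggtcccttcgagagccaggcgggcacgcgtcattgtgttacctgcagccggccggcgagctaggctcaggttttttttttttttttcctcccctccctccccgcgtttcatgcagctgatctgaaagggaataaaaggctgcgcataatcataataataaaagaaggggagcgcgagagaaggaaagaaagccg
The *Hey2* window held 1 match, which begins 207 bases before the start site, and the *Dll4* and *Jag1* windows held none. Over both strands, 3 of the 8 promoter windows of these genes (1 of *Hey2* and 2 of *Rbpj*) held the letters, against 21.6% of 32851 windows of the same length. The *Rbpj* windows (chr5:53590096-53590345 and chr5:53590236-53590485) overlap and share a match, so they do not count as separate windows. A match of 6 letters is a description of the window only.

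**Figure D1:**
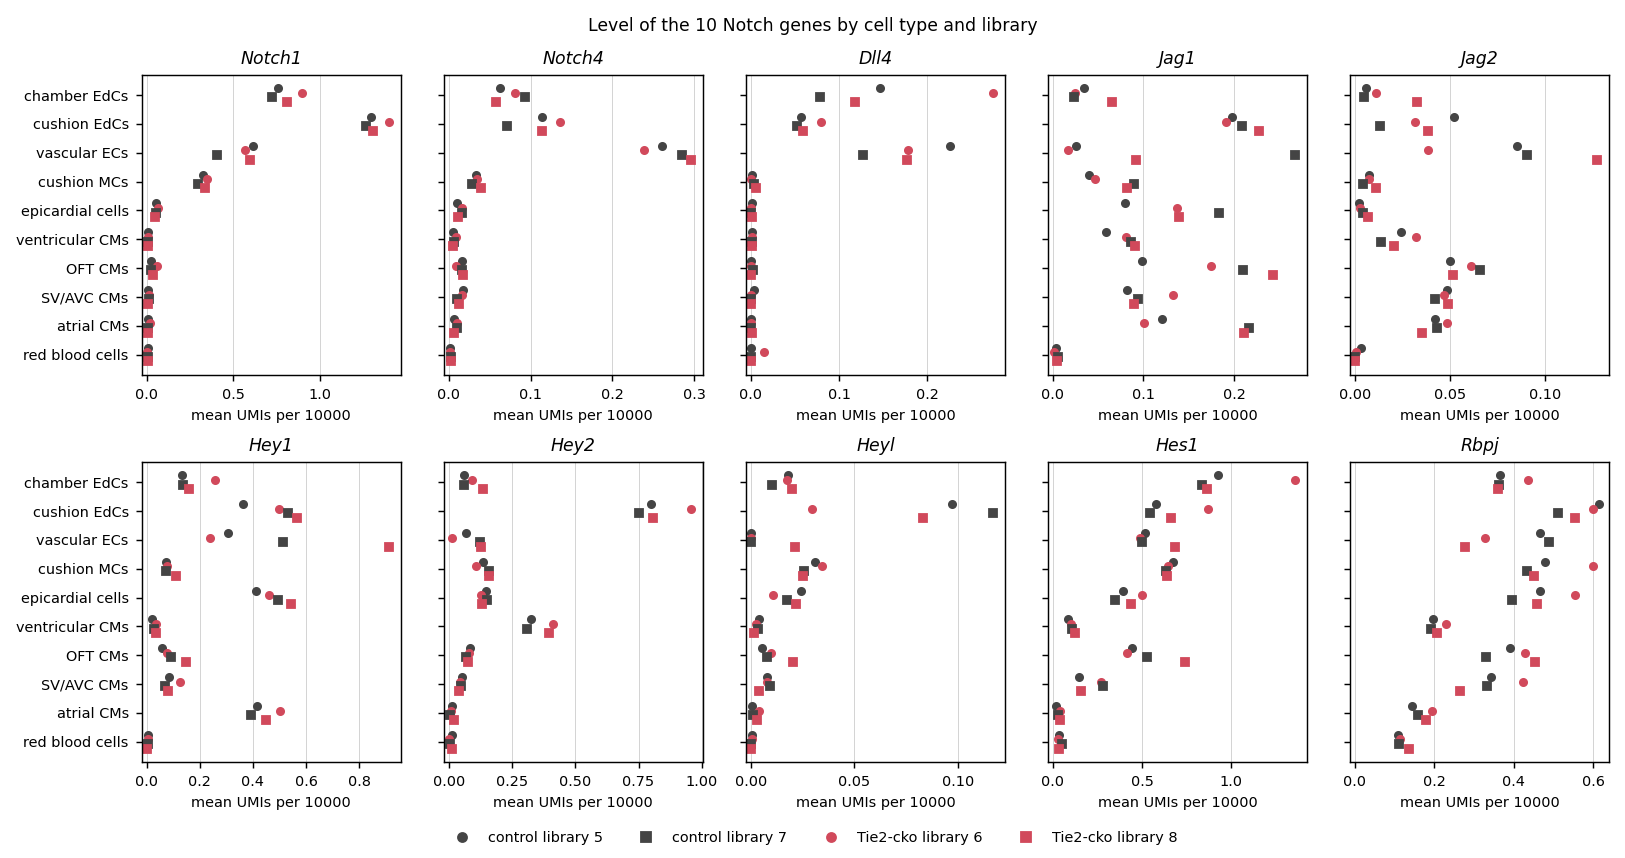
Mean UMIs per 10000 of each gene (x axis, a separate linear scale per gene) in 10 cell types (rows). Each point is 1 library, dark for control and red for *Tie2-cko*, and all *Notch1* points of cushion EdCs (1.27 to 1.40) lie to the right of those of chamber EdCs (0.723 to 0.899).

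The receptors were highest in endothelial types. *Notch1*, the main endocardial receptor, had a level of 1.29, 1.40, 1.27 and 1.31 UMIs per 10000 in cushion EdCs of libraries 5, 6, 7 and 8, the order used for every set of 4 levels here. In chamber EdCs it was 0.759, 0.899, 0.723 and 0.811, and in vascular ECs 0.617, 0.570, 0.407 and 0.595. Every cushion EdC library lay above every chamber EdC library, and every chamber EdC library above every vascular EC library. Cushion MCs followed with a mean of 0.327 ± 0.020 (SD, n = 4 libraries), again without overlap with vascular ECs. In ventricular CMs (0.00719 ± 0.00139) and atrial CMs (0.00993 ± 0.00554) *Notch1* was near its level in red blood cells (0.00633 ± 0.00324), which serve here as a background of free RNA, and the ranges overlapped. *Notch4*, a receptor known mainly from vessels, had another order. It was highest in vascular ECs (0.261, 0.239, 0.285 and 0.296), above every library of cushion EdCs (0.115, 0.136, 0.0707 and 0.113). Cushion and chamber EdCs overlapped in *Notch4* (chamber 0.0629, 0.0806, 0.0937 and 0.0579).

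The ligands were split among cell types. *Dll4*, the ligand known from arterial and chamber endothelium, was 0.226, 0.178, 0.127 and 0.177 in vascular ECs and 0.146, 0.275, 0.0780 and 0.118 in chamber EdCs, which overlapped. The vascular value of library 7 rests on 3 UMIs. *Dll4* was 0.0567, 0.0794, 0.0523 and 0.0589 in cushion EdCs, and no CM type held more than 7 *Dll4* UMIs in any library. *Jag1* had its highest mean in cushion EdCs (0.198, 0.191, 0.209 and 0.228), followed by OFT (outflow tract) CMs (0.0987, 0.175, 0.210 and 0.243) and atrial CMs (0.121, 0.10, 0.216 and 0.212). Each type overlapped with the next in this order, from cushion EdCs down to chamber EdCs, the tenth of 13 types. In vascular ECs *Jag1* ran from 0.0167 to 0.268, so that library 7, with 9 UMIs, lay above every cushion EdC library. In cushion EdCs, OFT CMs, atrial CMs, ventricular CMs and cushion MCs libraries 7 and 8, 1 of each genotype, were both above libraries 5 and 6 in *Jag1*. Chamber EdCs had the lowest mean *Jag1* of the endothelial and CM types (0.0340, 0.0244, 0.0234 and 0.0649), with overlap with vascular ECs. *Jag2* was low throughout. Its means were 0.0854 ± 0.0365 in vascular ECs, 0.0571 ± 0.0076 in OFT CMs, 0.0339 ± 0.0162 in cushion EdCs and 0.0135 ± 0.0129 in chamber EdCs, the last from 3 to 9 UMIs per library.

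*Hey2* was highest in cushion EdCs, at 0.798, 0.957, 0.753 and 0.808. Ventricular CMs came next (0.327, 0.414, 0.310 and 0.396), below every cushion EdC library and above every library of cushion MCs (0.135, 0.108, 0.161 and 0.159). Chamber EdCs had 0.0590, 0.0902, 0.0615 and 0.135, and atrial CMs 0.0135, 0.00782, 0.00654 and 0.0214, with overlap between atrial CMs and red blood cells. *Hey1* had no single peak. Vascular ECs (0.306, 0.237, 0.513 and 0.911), cushion EdCs (0.362, 0.496, 0.530 and 0.566), epicardial cells (0.411, 0.462, 0.495 and 0.542) and atrial CMs (0.415, 0.503, 0.394 and 0.450) overlapped with their neighbours in this order. The next type, chamber EdCs (0.134, 0.258, 0.135 and 0.161), lay below every atrial library. *Hey1* was lowest among CMs in the ventricle (0.0204, 0.0349, 0.0293 and 0.0345).

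*Heyl* was the scarcest target. In cushion EdCs it was 0.0974, 0.0294, 0.117 and 0.0830 (27 to 77 UMIs per library), in cushion MCs 0.0291 ± 0.0043 and in chamber EdCs 0.0163 ± 0.0043. Neural cells of libraries 5 and 6, the libraries with most such cells, held 0.173 and 0.298, and libraries 7 and 8 held 1 and 0 UMIs. *Hes1*, which many signals besides Notch are known to induce, was highest in chamber EdCs (0.927, 1.36, 0.834 and 0.863) and overlapped with epithelial cells (0.956 ± 0.291) and cushion EdCs (0.580, 0.869, 0.546 and 0.664). Atrial CMs had the least *Hes1* of the 13 types with at least 20 cells per library that holds them (0.0315 ± 0.0091), with overlap with red blood cells. *Rbpj* was present in every type, from 0.821 ± 0.020 in epithelial cells and 0.570 ± 0.047 in cushion EdCs to 0.168 ± 0.022 in atrial CMs and 0.117 ± 0.013 in red blood cells.

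Over the same 13 types the genes with the most similar profile were named for 6 of the 10 genes. Similarity was Pearson's r of log2(level + 0.1) in the control mean, over 7975 genes, and is a description, since the types share libraries and few types hold these genes. *Notch1* was closest to *F2r* (r = 0.984), *Eng* (0.977) and *Calcrl* (0.974), which encode endothelial surface receptors. *Dll4* was closest to *Exoc3l* (0.995), *Sost* (0.993) and *Thsd1* (0.992). *Hey2* was closest to *Pgf* (0.836), *Klf4* (0.794) and *Adam23* (0.788). *Heyl* was closest to *Pi16* (0.939), *Serpinb9b* (0.938) and again *Adam23* (0.937). The closest profile to *Hey1* was that of *Lpar4* (0.823), followed by the ligand *Jag1* (0.819) and *L3mbtl3* (0.810). *Jag1* in turn was closest to *Tmem65* (0.853), *Schip1* (0.853) and *Fam114a2* (0.853).

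Chamber and cushion EdCs were compared with the library as a block, on counts summed per library and type. Of 11991 genes tested, 24.6% were higher and 23.9% lower in chamber EdCs at an edgeR adjusted p under 0.05, so that a call by itself is common in this comparison. All 10 genes were tested, 2 were higher and 7 were lower. The higher ones were *Dll4*, with a log2 difference of 1.29 ± 0.13 (SE, adjusted p = 2.88e-06), and *Hes1*, with 0.67 ± 0.07 (adjusted p = 6.52e-06). Among the lower ones the difference was greatest in *Hey2*, at -3.35 ± 0.12 (adjusted p = 1.56e-10). *Heyl* followed with -2.64 ± 0.25, *Jag1* with -2.37 ± 0.19, *Jag2* with -1.91 ± 0.39 and *Hey1* with -1.41 ± 0.10. The receptor *Notch1* (-0.62 ± 0.06) and *Rbpj* (-0.43 ± 0.07) differed less. Their adjusted p-values were between 5.34e-08 and 0.00113. *Notch4* did not pass (-0.26 ± 0.19, adjusted p = 0.274), but did without library 7 (-0.56, adjusted p = 0.0112). The median over the 10 genes was -1.02, against 0.00 over all genes.

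**Figure D2:**
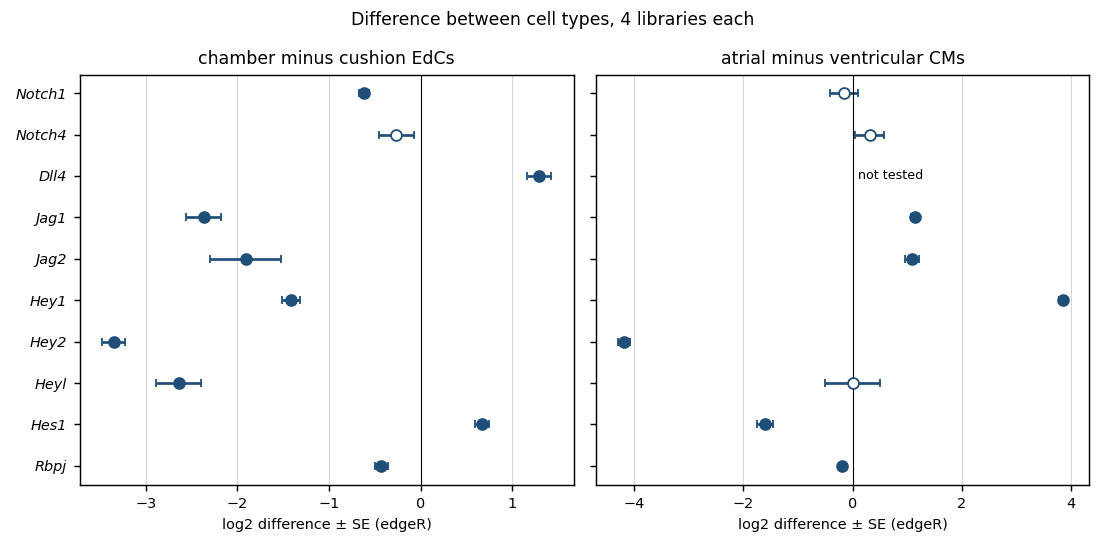
Log2 difference ± SE (x axis) of each gene between chamber and cushion EdCs (left) and between atrial and ventricular CMs (right), over 4 libraries with the library as a block. Filled points passed an edgeR adjusted p of 0.05, and *Hey2* is the point farthest to the left in both plots, at -3.35 and -4.18.

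Other genes of the pathway and genes linked to Notch in endocardium, arteries or cushions gave the context. Of 50 pathway genes, 42 were tested between the EdC types and 24 passed, 6 higher and 18 lower in chamber EdCs, with a median log2 difference of -0.14. Of the 25 linked genes, 24 were tested and 20 passed, 6 higher and 14 lower (median -0.70). The 4 pathway genes with the highest level in EdCs were *Hdac1*, a histone deacetylase (0.50 ± 0.05), *Psenen*, a subunit of the protease that releases the Notch intracellular part, *Snw1*, a partner of RBPJ, and *Adam10*, the protease that makes the first cut (-0.52 ± 0.06, adjusted p = 4.82e-06). *Psenen* (1.46 ± 0.05 in chamber and 1.64 ± 0.01 UMIs per 10000 in cushion EdCs) and *Snw1* (1.32 ± 0.04 and 1.44 ± 0.08) did not pass. Among linked genes of high level, *Wnt4*, which was among the markers used to name cushion EdCs, was lower in chamber EdCs (-2.20 ± 0.05), as was *Flt1* (-0.34 ± 0.06), and *Gja4* (1.15 ± 0.27) and *Hand2* (0.15 ± 0.05) were higher. *Dll1*, a ligand named here after its values were seen, was also higher in chamber EdCs (2.59 ± 0.23, adjusted p = 9.15e-07).

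Atrial and ventricular CMs were compared in the same way. Of 14351 genes, 22.9% were higher and 20.1% lower in atrial CMs. *Dll4* was too scarce to be tested, and of the other 9 genes 3 were higher and 3 lower. *Hey1* was higher in atrial CMs, with a log2 difference of 3.85 ± 0.07 (edgeR adjusted p = 9.78e-16), and *Hey2* was lower by a similar size (-4.18 ± 0.11, adjusted p = 5.79e-14). The ligands *Jag1* (1.14 ± 0.07, adjusted p = 1.29e-09) and *Jag2* (1.08 ± 0.13, adjusted p = 4.54e-06) were both higher in atrial CMs. *Hes1* was lower (-1.61 ± 0.14, adjusted p = 1.79e-07), and by -0.79 with the cell types of resolution 1.2. *Rbpj* passed at a small difference (-0.20 ± 0.05, adjusted p = 0.00707), but not with DESeq2 (adjusted p = 0.0546) nor with the cell types of resolution 1.2 (adjusted p = 0.890), where a cluster led by *Shox2* joined the atrial CMs. *Notch1*, *Notch4* and *Heyl* did not pass, with differences of -0.16 ± 0.26, 0.31 ± 0.26 and -0.0024 ± 0.50 at 2 to 61 UMIs per library. Of the pathway list 44 genes were tested and 18 passed (8 higher and 10 lower), and of the linked list 22 were tested and 14 passed (8 higher and 6 lower).

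In the left panel of the plot of *Hey1* against *Hey2*, atrial and ventricular CMs lay along different axes. SV/AVC (sinus venosus and atrioventricular canal) CMs and OFT CMs held little of either gene. Their *Hey1* means were 0.0903 ± 0.0243 and 0.0939 ± 0.0389, and their *Hey2* means 0.0476 ± 0.0056 and 0.0763 ± 0.0059. Cushion EdCs had the highest mean of *Hey2* and the second highest of *Hey1* among the 13 types.

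**Figure D3:**
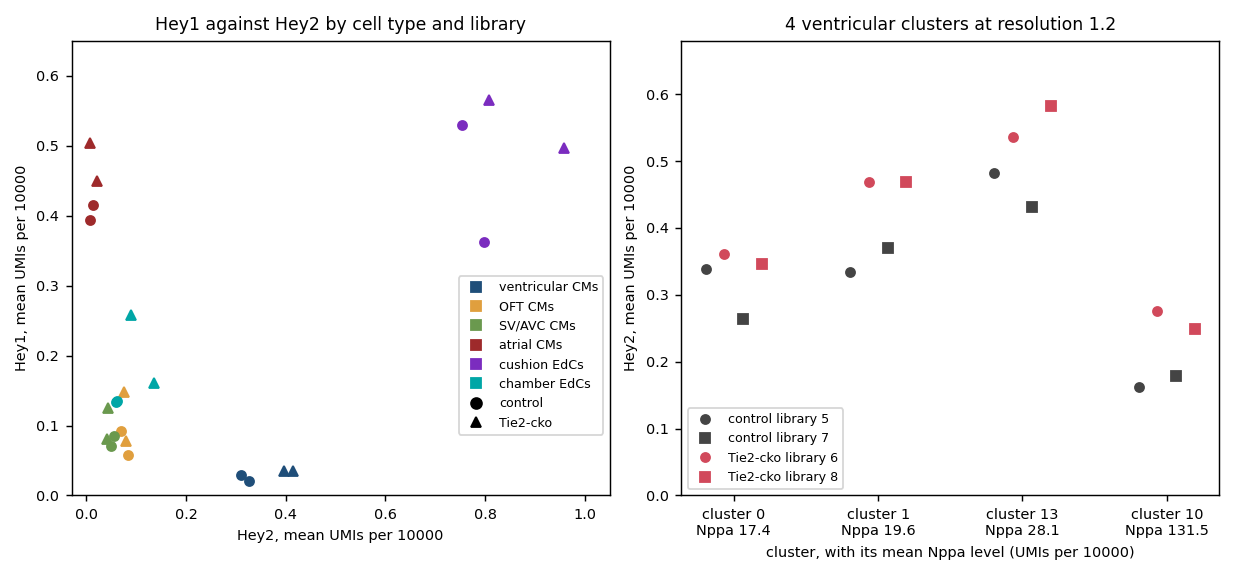
Left, *Hey1* against *Hey2* in mean UMIs per 10000, 1 point per cell type and library, circles for control and triangles for *Tie2-cko*. Right, *Hey2* in 4 ventricular clusters ordered by *Nppa*, 1 point per library, where the cluster with the most *Nppa* had the least *Hey2* (0.162 to 0.276).

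At a clustering resolution of 1.2 the ventricular CMs fell into 4 clusters, of which 1 was rich in *Nppa*, a gene of trabecular CMs (107 to 166 UMIs per 10000, against 11.99 to 36.1 in the other clusters). *Hey2*, which is known from compact myocardium, was 0.162, 0.276, 0.179 and 0.249 in the *Nppa*-rich cluster. In the other clusters its means were 0.327 ± 0.043, 0.410 ± 0.069 and 0.508 ± 0.065 (SD, n = 4 libraries). Within each library the *Nppa*-rich cluster had the lowest *Hey2* of the 4. *Hes1* had its highest mean there, with 0.133 ± 0.025 in the *Nppa*-rich cluster and means of 0.0744 to 0.120 elsewhere, and these ranges overlapped. No test was made, since *Nppa* was used to form the clusters and the resolution was looked at after the other results.

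*Tie2-cko* and control hearts were compared within 5 cell types. At an edgeR adjusted p under 0.05, the share of genes called was 0.00871% in chamber EdCs (1 of 11485, *Tek*) and 0% in cushion EdCs, ventricular CMs, atrial CMs and cushion MCs. None of the 10 genes was called in any of these types by the main edgeR fit or by DESeq2, both without a block. Without the filter on low counts, edgeR called *Dll4* in chamber EdCs. With libraries 5 and 6 set against 7 and 8 as a block in edgeR, *Dll4*, *Hey1* and *Hey2* were called in chamber EdCs and *Hes1* in cushion EdCs. The labels do not pair these libraries, and this split was chosen with the difference in foregut mesenchyme known. Over all genes this block called 846 in chamber EdCs and 103 in cushion EdCs, so that a call was far more common than in the fit without it. At an unadjusted p under 0.05 there were 2 of 9 tested in chamber EdCs (*Hey1* and *Hey2*), 2 of 10 in cushion EdCs (*Hes1* and *Heyl*), 1 of 9 in ventricular CMs (*Hey2*), 1 of 7 in atrial CMs (*Hes1*) and 0 of 9 in cushion MCs. Over all genes, DESeq2 called 23, 11, 1, 0 and 9 genes in chamber EdCs, cushion EdCs, ventricular CMs, atrial CMs and cushion MCs. In the same order, an unadjusted edgeR p under 0.05 was reached by 785 of 11485, 260 of 11336, 85 of 14637, 95 of 12218 and 130 of 12643 genes. With 2 libraries of each genotype, the smallest p that an exact two-sided permutation test can give is 0.333.

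In chamber EdCs the log2 difference (*Tie2-cko* minus control) was 0.59 ± 0.18 for *Hey1* (adjusted p = 0.560), 0.71 ± 0.28 for *Hey2* (adjusted p = 0.707) and 0.19 ± 0.12 for *Notch1* (adjusted p = 0.825). With the library pair block the edgeR differences were 0.58 for *Hey1* (adjusted p = 0.00508), 0.72 for *Hey2* (adjusted p = 0.0350), 0.72 for *Dll4* (adjusted p = 0.000763) and 0.19 for *Notch1* (adjusted p = 0.237). In *Hey1*, *Hey2* and *Notch1* both *Tie2-cko* libraries were above both controls, in the levels given before and in CPM (counts of the summed cells scaled to a common library size). Of the 9 tested genes these 3 were the only ones without overlap in CPM, where 37.2% of all genes did not overlap. Cells with at least 5000 UMIs were also drawn down at random to 5000 each. The percentage of these cells with *Hey2* overlapped between genotypes (3.61 and 2.89 in control, 3.17 and 6.09 in *Tie2-cko*). That with *Hey1* did not (7.50 and 5.97 against 8.73 and 7.73). *Dll4* had the greatest difference, 0.76 ± 0.33 (adjusted p = 0.725), but library 5 (control, 0.146) was above library 8 (*Tie2-cko*, 0.118). *Dll4* passed without library 5 (0.98, adjusted p = 0.0284), without library 8 (1.18, adjusted p = 0.0459) and without the filter on low counts (0.75, adjusted p = 0.0493), but its difference was 0.18 without library 6, and over all settings its adjusted p ran from 0.000763 to 0.9998. *Jag1* (0.76 ± 0.44), *Heyl* (0.23 ± 0.46), *Hes1* (0.08 ± 0.15), *Rbpj* (0.05 ± 0.14) and *Notch4* (-0.01 ± 0.28) overlapped, and *Jag2* was too scarce to be tested.

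In cushion EdCs, 6 of the 10 genes did not overlap between genotypes in CPM, against 28.3% of all genes. *Notch4* (0.50 ± 0.26), *Dll4* (0.57 ± 0.32), *Hey1* (0.35 ± 0.17), *Hey2* (0.18 ± 0.13) and *Hes1* (0.41 ± 0.15) had higher and *Heyl* (-0.67 ± 0.28) lower values in *Tie2-cko*, each at an edgeR adjusted p of 0.9998. *Hes1* passed with the library pair block (0.40, adjusted p = 0.0481). In mean UMIs per 10000, *Notch4* and *Hey1* overlapped. In cells drawn down to 5000 UMIs, the percentage of cells with a UMI overlapped between genotypes for each of these 6 genes. For *Hes1* it was 17.8 and 20.8 in control and 29.4 and 20.7 in *Tie2-cko*. *Notch1* overlapped in CPM, with a difference of -0.03 ± 0.13 and a range of 2 SE from -0.28 to 0.22, but in mean UMIs per 10000 both *Tie2-cko* libraries (1.40 and 1.31) were above both controls (1.29 and 1.27). The difference of the genotype effect between chamber and cushion EdCs was tested as a cell type by genotype term, in which 0.542% of 11991 genes were called. At an unadjusted edgeR p under 0.05 there were 4 of the 10 genes (*Hes1*, *Jag1*, *Hey2* and *Notch1*), beside 1146 of the 11991 genes. None of the 10 genes passed, and the lowest adjusted p was that of *Hes1* (-0.33 ± 0.11, adjusted p = 0.304). DESeq2 called none of the 10 either.

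In ventricular CMs, 5 of 9 tested genes did not overlap, against 18.7% of all genes. *Hey2* differed by 0.27 ± 0.11 (adjusted p = 0.99996). Both *Tie2-cko* libraries were above both controls also within each of the 4 ventricular clusters in the right panel of the plot of *Hey2* by cluster. These clusters divide cells of the same libraries, so they are no repeat of the difference. *Nppa* was 142 and 166 in control and 107 and 110 in *Tie2-cko* in the *Nppa*-rich cluster. It was lower without overlap in clusters 0 and 1 and overlapped in cluster 13. Its part in the *Hey2* difference was not tested. *Hey1* differed by 0.30 ± 0.20, *Rbpj* by 0.05 ± 0.11, *Notch1* by 0.50 ± 0.32 and *Heyl* by -0.75 ± 0.40. The last 2 rested on 37 to 61 and 13 to 27 UMIs per library. The 8 cardiomyocyte markers summed to 376.3 to 377.9 in control and 352.6 to 362.3 in *Tie2-cko* ventricular CMs, and their part in these differences was not tested. In atrial CMs, where *Notch1*, *Dll4* and *Heyl* were too scarce to be tested, 1 of 7 genes did not overlap, against 22.6% of all genes. This was *Hes1* (0.83 ± 0.30, adjusted p = 0.99999), at a level close to that of red blood cells. *Hey1* in atrial CMs differed by 0.06 ± 0.13, with a range of 2 SE from -0.20 to 0.33. In mean UMIs per 10000, *Hey1* (0.415 and 0.394 against 0.503 and 0.450) and *Rbpj* (0.144 and 0.157 against 0.194 and 0.179) did not overlap in atrial CMs, though both overlapped in CPM. The same held for *Jag2* in cushion MCs, at 8 to 10 UMIs per library. In cushion MCs 4 of 9 genes did not overlap, against 24.3% of all genes. *Hey1* (0.39 ± 0.21), *Notch4* (0.29 ± 0.25) and *Notch1* (0.09 ± 0.12) had higher values and *Hes1* (-0.09 ± 0.12) lower ones, and *Hes1* overlapped in mean UMIs per 10000. *Hey1* was the gene without overlap in CPM in most types, 4 of 5, with higher values in *Tie2-cko* each time. All of these types come from the same libraries, so they are no repeats of the *Hey1* difference. The share of all genes with such a pattern across types is not given here, so the count is a description only.

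**Figure D4:**
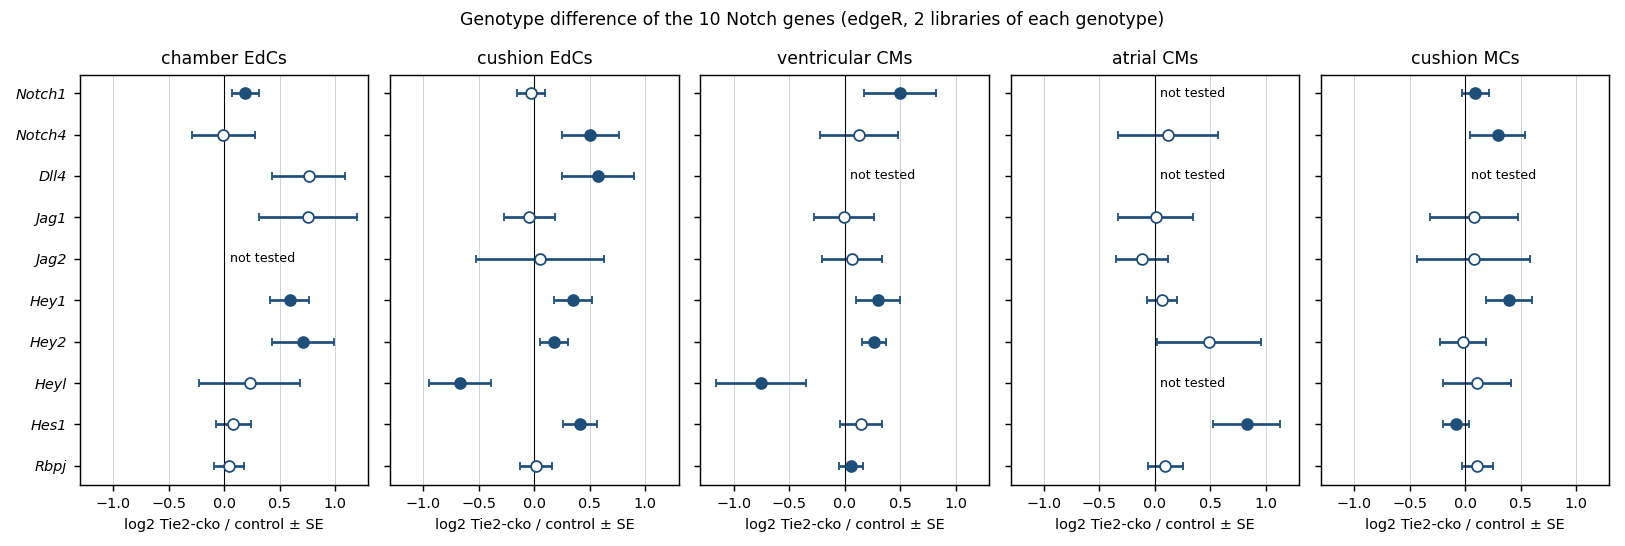
Log2 difference ± SE (x axis, *Tie2-cko* against control) of each gene in 5 cell types, 2 libraries of each genotype. Filled points mark genes whose libraries did not overlap between genotypes in CPM, and no point passed an edgeR adjusted p of 0.05 in this fit without a block.

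The median over the tested genes was 0.23 in chamber EdCs, 0.12 in cushion EdCs, 0.13 in ventricular CMs, 0.10 in atrial CMs and 0.09 in cushion MCs, beside medians over all genes between 0.00 and 0.01. In the same order the medians were 0.08, 0.08, 0.02, 0.04 and 0.04 over the pathway list. Over the linked list they were 0.18, 0.14, 0.02, 0.11 and 0.08. These medians were not tested. None of the pathway or linked genes tested (40 to 45 and 18 to 23 in a type) passed in any of the 5 types. In the cell type by genotype term 2 of 24 linked genes tested passed, beside 65 of all 11991 genes. For these 2 no values from the alternative settings are given here. *Gja4*, which encodes a connexin of endothelium, was 2.29 and 2.20 in control and 1.27 and 1.51 in *Tie2-cko* chamber EdCs, but 0.693 and 0.482 against 0.941 and 0.935 in cushion EdCs (-1.82 ± 0.17, adjusted p = 0.000101). *Hbegf*, which encodes a ligand of EGF receptors, was 0.159 and 0.136 against 0.277 and 0.406 in chamber EdCs and 0.606 and 0.520 against 0.540 and 0.684 in cushion EdCs (1.07 ± 0.16, adjusted p = 0.00814).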

How the data were processed

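4 single-cell libraries of mouse hearts at E10.5 were analysed, 2 of each genotype. The authors deposited raw UMI counts per gene and barcode, made with Cell Ranger (6.1.2 per the file headers, another version in the methods) on mm10 per the labels. A barcode had to reach 500 genes and 1000 UMIs, with no more than 10% of UMIs from mitochondrial genes, and barcodes with the top Scrublet scores (scanpy 1.11.5) were dropped as doublets, 0.8% for every 1000 barcodes. Clustering in Seurat 5.3.0 used no integration and 2000 variable genes, less the 24 of them that are compared here, and gave 27 clusters at resolution 0.8 (20 neighbours, 30 principal components).

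A cluster took the name of a type with at least 3 markers and over 0.5 of its list present (0.25 of the highest cluster), chosen by its markers among the top 10 genes. Clusters under 0.333 of their libraries' median UMIs stayed unnamed. The clusters were known when this naming was decided. For levels, a gene's UMIs were divided by each cell's total, multiplied by 10000 and averaged by type and library. Counts summed per library and type were tested with edgeR 4.0.16 (TMM, filterByExpr, quasi-likelihood test, Benjamini-Hochberg over all genes of a fit, threshold 0.05), the SE being the log2 difference over the square root of F. DESeq2 1.42.0 was an alternative. No block paired the genotypes in the edgeR fits, since the labels pair no libraries, and a block for libraries 5 and 6 against 7 and 8 was an alternative. The p-values measure the spread between these libraries. On simulated counts in which 200 genes differed by a log2 of 1, edgeR called 152 in chamber EdCs (11328 genes, 5 false), 153 in cushion EdCs (11188 genes, 2 false) and 146 in ventricular CMs (14437 genes, 6 false). DESeq2 called 117, 121 and 149 of them, with 3, 0 and 17 false. The simulated counts had the same dispersion for every gene and no deviation shared by libraries, and genes of the lowest counts were not changed. They therefore do not give the chance of a call for the genes described here.

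The genes, the lists and the tests were chosen with earlier results of these data known. Named genes are the 10 genes, *Tek*, list genes past the threshold in a fit of genotype, up to 4 genes per list with the highest level in EdCs, and the 3 most similar profiles of 6 genes. Promoters and their strand came from RefSeq tables. No correction for free RNA was made. R 4.3.3 and Python 3.11.15 were used.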

Additional observations from a re-analysis of the deposited data

Results flagged for a closer look

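*Gja4* and *Hbegf* were picked out because the effect of genotype differed between chamber and cushion EdCs in the test of that difference, by -1.82 and 1.07 on the log2 scale. *Hes1* was picked out because its direction in CPM differed among types. Both *Tie2-cko* libraries were above both controls in cushion EdCs (0.41 ± 0.15, SE) and atrial CMs (0.83 ± 0.30). Both were below both controls in cushion MCs (-0.086 ± 0.12), where the SE exceeded the difference and the mean levels overlapped. The atrial level was close to that of red blood cells. In cushion EdCs, atrial CMs and cushion MCs, 28.3%, 22.6% and 24.3% of all genes did not overlap in CPM. The differences of *Hes1* between these types were not tested.

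Clusters left unnamed entered no comparison and still held UMIs of the *Hey* genes. *Hey1* was 0.283 UMIs per 10000 in cluster 7, led by *Prrx1* and *Col9a1*, and 0.125 in cluster 17, led by *Lhx2* and *Shisa3*. *Hey2* was 0.169 in cluster 26, led by *Foxe1* and *Prlr*. In the 3 clusters of few UMIs per cell, *Hey1* was 0.20 in cluster 10 and 0.0946 in cluster 11, and *Hey2* was 0.284 in cluster 15. With depth set aside, the markers of cluster 10 matched chamber EdCs. It held 562, 345, 400 and 241 cells in libraries 5, 6, 7 and 8, beside 379, 138, 589 and 453 named chamber EdCs. In library 6 more such cells were thus left out than compared.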

How the results depend on the processing

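None of the values of single genes reversed with a call. Of 480 alternative values of the genotype differences of the 10 genes, 473 stayed on the same side of the threshold and 7 passed it, and 48 changed sign without a call. Of 152 values between cell types, 149 stayed, 1 passed and 2 no longer passed, and all 60 values of the cell type by genotype term stayed. In chamber EdCs, where 0 of the 10 genes were called, 3 were called with a block for libraries 5 and 6 against 7 and 8 (*Dll4* 0.72, *Hey1* 0.58 and *Hey2* 0.72), 1 without the filter on low counts (*Dll4*), and 0 to 1 without 1 library. In cushion EdCs 1 was called with the library pair block (*Hes1* 0.40, adjusted p = 0.0481). Deviations of libraries 5 and 6 from their genotype mean correlated across genes with r of 0.572 to 0.873 in the 5 types. The labels give the genotypes no shared replicate numbers, and the methods do not say which libraries were matched, so this block rests on the data and not on the labels.

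Counts over all genes moved more. With the block 846, 103, 60, 134 and 41 genes were called in chamber EdCs, cushion EdCs, ventricular CMs, atrial CMs and cushion MCs, and without the filter 167, 42, 6, 28 and 23. Leaving out 1 library gave 2 to 174, 10 to 49, 4 to 55, 0 to 5 and 1 to 11. The stricter cell filter gave 0 in chamber EdCs and 4 in cushion EdCs, and resolution 1.2 gave 3 in cushion EdCs. The cell type by genotype term called 65 genes, 11 with DESeq2 or without the filter, and 95 to 294 without 1 library. Between EdC types DESeq2 called 3856 of 5807. The highest cell type was the same for 9 of 10 genes with pooled sums and with resolution 1.2, the exception being *Hey1* (cushion EdCs in place of vascular ECs). Including clusters of few UMIs, an alternative chosen after seeing the data, changed no call of the 10 genes. The causes were not tested. In scarce genes, *Jag2*, *Heyl* and *Dll4* outside endothelium, depth limits any statement.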
